A study of Mus musculus with 7 samples.

Results

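Matrix and fibrosis genes were read in the livers of fasted mice that carry the SHIVA mutation of Sox17 and in WT livers. The group holds 10 genes, namely the collagen chains Col1a1, Col1a2, Col3a1 and Col4a1, the cytoskeletal genes Acta2 and Des, the growth factor Tgfb1, the receptor Pdgfrb, the cross-linking enzyme Lox and the protease inhibitor Timp1. Members were taken by their gene name among the probes of the arrays that are not controls, which gave 11 probes of 55681 and 10 gene names of 36492. The rule reads gene names and no signal, though the list was drawn up with earlier results of these arrays known.

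The mice were C57BL/6 females of 8 to 12 weeks that had gone without food for 24 h, with 3 WT mice and 4 SHIVA mice. SHIVA mice carry a chemically induced germline change of Met to Arg in the HMG domain of Sox17, a transcription factor of the endoderm and of blood vessels, and the study describes all viable mutants as heterozygous. The mutation is present in every cell of the body, so that hepatocytes, vessels, bile ducts and fibroblasts of a SHIVA liver all bear it. Each liver was hybridized to an array of its own without pooling, and fed mice were not on the arrays.

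In the liver, type I and type III collagen are made mainly by hepatic stellate cells and portal fibroblasts, while type IV collagen belongs to basement membranes. Stellate cells that turn into myofibroblasts under the action of TGF-beta and PDGF take on alpha smooth muscle actin, the product of Acta2, and lay down fibrillar collagen, which lysyl oxidases cross-link and whose breakdown is slowed by tissue inhibitors of metalloproteinases. Vessel walls express several of the same genes in a healthy liver. In a whole liver, fewer cells of a type and less RNA per cell cannot be told apart.

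Values are log2 signals after quantile normalization over the 7 arrays. Limma was run on genes whose probe the scanner software marked as well above background on 3 or more arrays. From 44.5% to 48.7% of probes met that mark on an array, saturation affected 0 spots, and precision is limited by how few arrays there are. The slide, 1 for all arrays, carried WT and SHIVA livers in different rows, and the effects of row and genotype cannot be told apart. The probe of the mutated gene Sox17 ranged from 3.42 to 4.53 in WT livers and from 4.47 to 4.77 in SHIVA livers. It was well above background on 2 of the 3 WT arrays and on all 4 SHIVA arrays. Its level does not show whether the codon is changed. As a check of the tissue, 10 of 10 hepatocyte markers were measured in every liver, and the albumin gene Alb was at 18.31 ± 0.06 (SD, n = 3) in WT livers, beside 18.33 ± 0.04 (SD, n = 4) in SHIVA livers.

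The array reads each transcript through a probe of 60 bases. The following stretches are shown because they make plain what was measured for a growth factor, a filament protein and a collagen chain. Capitals mark a TAA stop codon that is in frame when the probe is read from base 3.
Tgfb1: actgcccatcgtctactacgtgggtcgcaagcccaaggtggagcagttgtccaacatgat
Des: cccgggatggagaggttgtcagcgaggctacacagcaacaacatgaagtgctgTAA
Col1a2: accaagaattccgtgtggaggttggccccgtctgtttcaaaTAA
The stretch of Tgfb1 is the whole probe of 60 bases. In Des the TAA follows 53 bases and in Col1a2 it follows 41 bases, and the rest of these probes is not printed. Which frame is translated was not looked up.

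Of the 10 genes, 8 were well above background on enough arrays to be tested, and 0 of them passed an adjusted p of 0.05 in limma, where 0.375% of the 20002 genes tested passed. Of the 8 genes, 7 had a higher mean in SHIVA livers, against 48.8% of all genes tested, and only Des had a lower one. The median log2 fold change of the 8 genes was 0.36, beside -0.0074 over all genes tested. It moved with single mice, to 0.18 without WT replicate 1 and to 0.56 without WT replicate 3. At an unadjusted p under 0.05 limma gave 2 of the 8, Acta2 and Col3a1, where 13.3% of all genes did, 7.24% in the higher direction. WT and SHIVA values did not overlap for 2 of the 8, Acta2 and Des, where that held for 12.2% of all genes, 6.14% with SHIVA livers higher and 6.02% with SHIVA livers lower. With so few genes, these shares are descriptions.

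**Figure D1:**
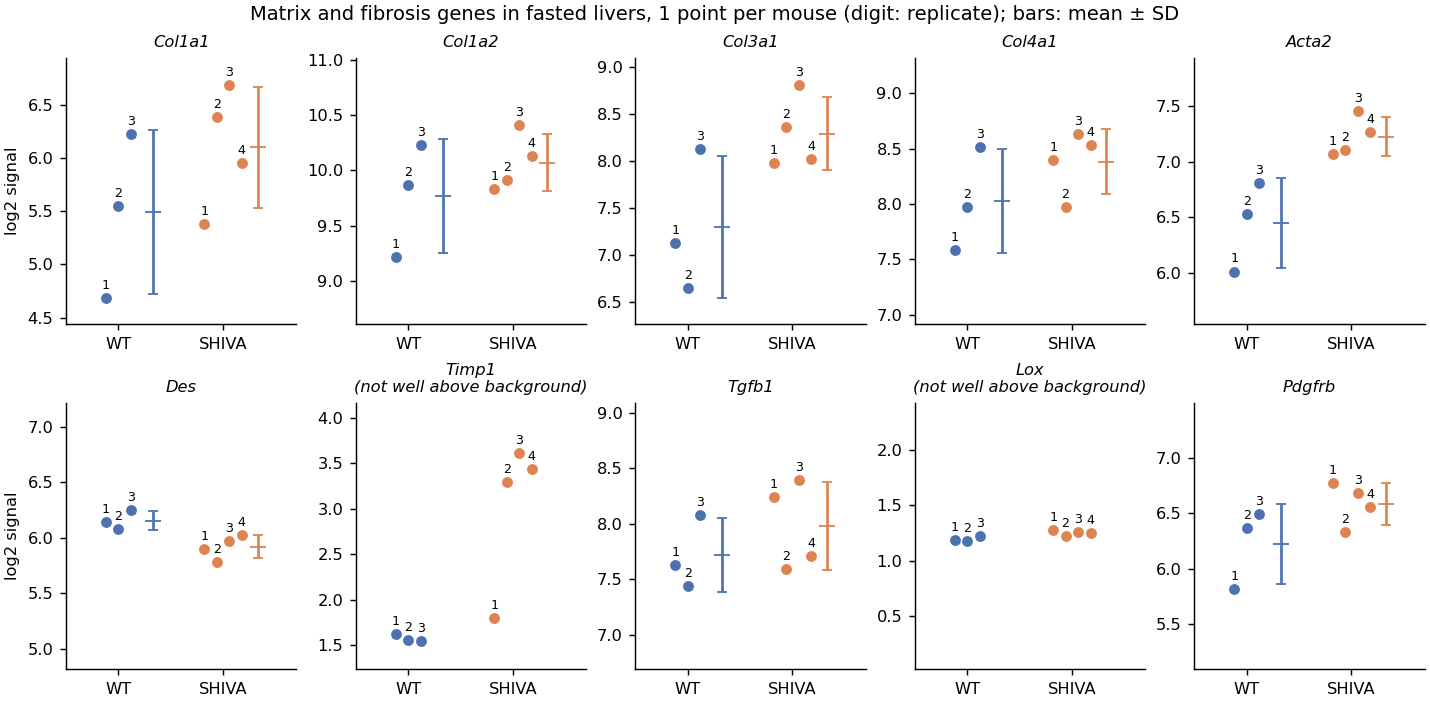
Log2 signal of each of the 10 genes (vertical axis) in WT and SHIVA livers (horizontal axis), with 1 point per mouse, the digit giving the replicate, and bars for the mean ± SD of each genotype. All panels span at least 2.4 log2 units, and Timp1 and Lox, which were not well above background on any array, have no bars. Among the tested genes, WT and SHIVA points are apart for Acta2 and, over a much smaller distance, for Des. The points of Timp1 are apart too, but as readings near background.

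Col3a1, the chain of type III collagen, had the largest fitted difference of the group. Its probe lies at chr1:45405589-45405648 of mm9. The log2 signal was 7.12, 6.65 and 8.13 in WT replicates 1, 2 and 3, and 7.98, 8.36, 8.81 and 8.02 in SHIVA replicates 1 to 4. WT replicates 1 and 2 lay below all SHIVA livers, while WT replicate 3 lay above SHIVA replicates 1 and 4, so the genotypes overlapped. WT livers averaged 7.30 ± 0.76 (SD, n = 3) and SHIVA livers 8.29 ± 0.39 (SD, n = 4). On the log2 scale SHIVA livers were 0.99 higher (SE 0.35), a 1.99-fold difference with a 95% interval from 1.14 to 3.46 and an adjusted p = 0.276 in limma with Benjamini-Hochberg adjustment. WT replicate 3 weighed on this value: without it the log2 fold change was 1.41 (adjusted p = 0.0508 in limma), and without WT replicate 2 it was 0.66 (adjusted p = 0.636 in limma).

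Col1a1 and Col1a2 encode the chains that together form type I collagen, the main protein of scar tissue. For Col1a1, read at chr11:94813115-94813174, the log2 signal was 4.69, 5.55 and 6.23 in WT livers and 5.38, 6.38, 6.69 and 5.95 in SHIVA livers. The lowest value was that of WT replicate 1, but WT replicate 3 lay above 2 of the 4 SHIVA livers. Relative to WT, the log2 fold change was 0.61 (SE 0.40, 95% interval -0.31 to 1.53, adjusted p = 0.566 in limma). For Col1a2, read at chr6:4490619-4490678 by the probe shown in part above, the log2 signal was 9.22, 9.86 and 10.23 in WT livers and 9.83, 9.91, 10.41 and 10.13 in SHIVA livers. Here too the genotypes overlapped, and the WT livers alone spread over 1 log2 unit. Limma gave a log2 fold change of 0.30 (SE 0.25, 95% interval -0.28 to 0.88, adjusted p = 0.676 in limma), so the interval holds both no change and a change of 1.84-fold. Both chains depended on single WT livers: without WT replicate 1 the log2 fold changes were 0.21 for Col1a1 and 0.02 for Col1a2, and without WT replicate 3 they were 0.98 and 0.53. With normexp background correction that of Col1a1 was 0.27.

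Col4a1, a chain of the type IV collagen of basement membranes, is printed at 10 spots on each array, of which 7 to 10 were used. Its log2 signal at chr8:11199009-11199068 was 7.59, 7.98 and 8.52 in WT livers and 8.39, 7.97, 8.63 and 8.53 in SHIVA livers. The spots of this probe had a median SD of 0.07 within an array, while the mice differed by an SD of 0.47 among WT and 0.29 among SHIVA livers, a spread that holds the liver and its array together. The fitted log2 fold change was 0.35 (SE 0.25, 95% interval -0.21 to 0.92, adjusted p = 0.594 in limma). It was 0.14 without WT replicate 1 and 0.60 without WT replicate 3. Col4a2, the partner chain in the same collagen, was looked at after its values were seen. Its log2 signal was 7.60, 8.23 and 8.92 in WT and 8.66, 8.29, 8.95 and 8.62 in SHIVA livers, and the log2 fold change was 0.38 (SE 0.30, adjusted p = 0.636 in limma).

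Acta2, which encodes the smooth muscle actin of vessel walls and myofibroblasts, was higher in all 4 SHIVA livers than in any WT liver, without passing the adjusted threshold. Read at chr19:34316060-34316119 by a probe printed at 10 spots, its log2 signal was 6.01, 6.53 and 6.81 in WT livers and 7.07, 7.11, 7.46 and 7.27 in SHIVA livers. The gap between the highest WT and the lowest SHIVA liver was 0.26, smaller than the range of 0.80 among WT livers. WT livers averaged 6.45 ± 0.41 (SD, n = 3) and SHIVA livers 7.23 ± 0.18 (SD, n = 4). This was a log2 fold change of 0.78 (SE 0.21), or 1.71-fold with a 95% interval from 1.23 to 2.38, and the adjusted p = 0.192 in limma. By p-value it ranked 551 of 20002 genes, and 5.86% of all genes had a larger absolute log2 fold change. When the fit was repeated 7 times, each time without 1 mouse, the unadjusted p stayed under 0.05 in 7 of 7 fits and the adjusted p passed in 0 of 7. With normexp background correction the log2 fold change was 0.50.

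The spots of Acta2 had a median SD of 0.09 within an array, far below the difference between the genotypes. Single spots ranged from 5.83 to 6.97 over the WT arrays and from 6.95 to 7.56 over the SHIVA arrays, which left them almost apart even before averaging. Repeated spots share the RNA of the liver, so they give the precision of the measurement and add no mice.

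Des encodes desmin, the intermediate filament of smooth muscle that also marks stellate cells of rodents, and it was the single tested member whose mean was lower in SHIVA livers. Its probe, shown in part above, maps to chr1:75363404-75363629, an interval longer than the probe itself. The log2 signal was 6.14, 6.08 and 6.25 in WT livers and 5.90, 5.78, 5.97 and 6.03 in SHIVA livers. All WT livers lay above all SHIVA livers, yet the nearest mice were only 0.05 apart. Limma fitted a log2 fold change of -0.24 (SE 0.14, 95% interval -0.54 to 0.07, adjusted p = 0.505), whose unadjusted p was above 0.05 too. With normexp it was -0.11. The median SD of its spots within an array was 0.15, larger than the SD between mice, 0.09 in WT and 0.10 in SHIVA livers, so that the averages of 9 to 10 spots per array carry this comparison. The methods' t-test, which uses the gene's own small spread alone, gave an unadjusted p under 0.05 for Acta2 and Des and an adjusted one for 0 of the 8 genes.

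**Figure D2:**
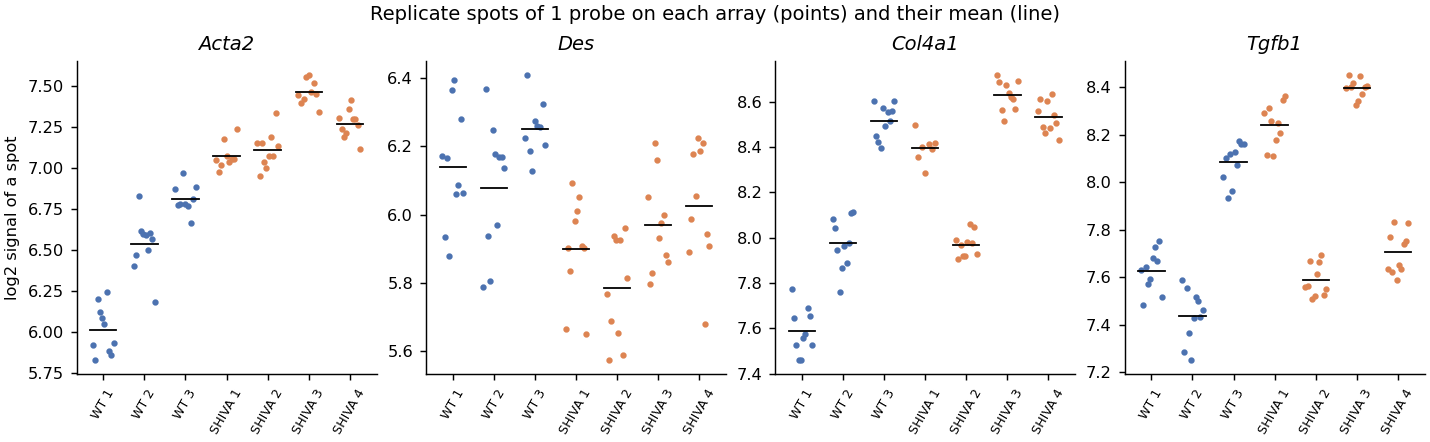
Log2 signal of every used spot (points, vertical axis) of the 4 genes printed at 10 spots per array, by mouse (horizontal axis), with the mean of the spots of each array. For Acta2 the spots of an array lie close together and the WT mice lie apart from each other, while for Des the scatter of the spots is as wide as the difference between WT and SHIVA mice.

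Tgfb1 encodes the cytokine TGF-beta, the main driver of matrix production by stellate cells, and Pdgfrb the receptor through which PDGF makes them divide. For Tgfb1, read at chr7:26489877-26489936 by the probe shown in full above, the log2 signal was 7.63, 7.44 and 8.08 in WT livers and 8.24, 7.59, 8.40 and 7.71 in SHIVA livers. SHIVA replicates 1 and 3 lay above all WT livers, but replicates 2 and 4 lay within the range of the WT livers. Its log2 fold change was 0.27 (SE 0.25, 95% interval -0.30 to 0.83, adjusted p = 0.708 in limma), and with single mice left out it lay between 0.13, without WT replicate 2 or SHIVA replicate 3, and 0.45, without WT replicate 3. For Pdgfrb, whose probe lies on chromosome 18, the log2 signal was 5.82, 6.36 and 6.50 in WT livers and 6.77, 6.33, 6.68 and 6.56 in SHIVA livers. SHIVA replicate 2 lay among the WT values, and the other SHIVA livers lay above them. Its log2 fold change was 0.36 (SE 0.20, 95% interval -0.10 to 0.82, adjusted p = 0.492 in limma), and it was 0.16 without WT replicate 1.

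Timp1 and Lox, an inhibitor of matrix metalloproteinases and the enzyme that starts collagen cross-links, were not well above background on any of the 7 arrays and were not tested. Timp1, at chrX:20451802-20451861, read 1.62, 1.55 and 1.54 in WT livers and 1.80, 3.30, 3.62 and 3.44 in SHIVA livers. SHIVA replicates 2, 3 and 4 gave the higher readings. The lowest signal of any probe well above background was between 3.12 and 3.54, depending on the array, and since no array marked the spot of Timp1 as such, no fold is given. The 2 probes of Lox, on chromosome 18, read close to 1.2 on all arrays.

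**Figure D3:**
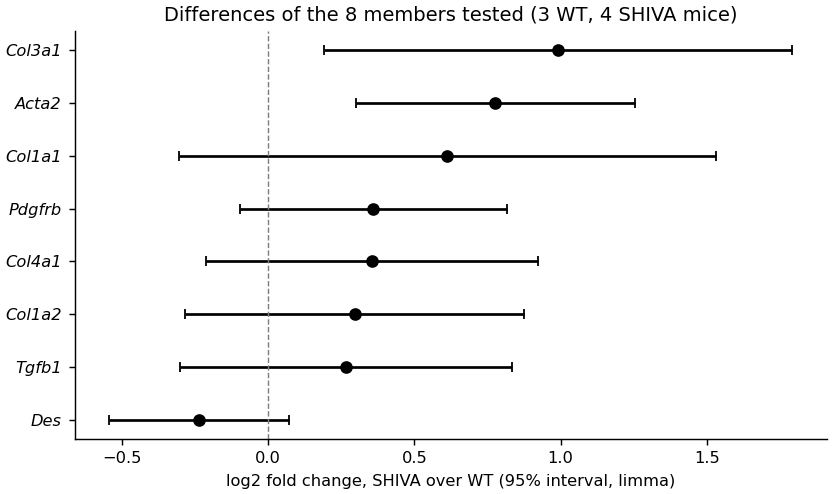
Fitted log2 fold change of SHIVA over WT (horizontal axis) for the 8 tested genes, with bars for the 95% interval from limma. The intervals of Acta2 and Col3a1 lie above 0, and those of the other 6 genes hold 0.

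Des, the only tested member with a lower mean in SHIVA livers, was set apart with that known. The direction of the remaining genes in SHIVA livers is therefore partly fixed by this choice. The 7 genes other than Des varied together from liver to liver. Their mean deviation from the WT mean was -0.42, -0.09 and 0.50 log2 units in WT replicates 1, 2 and 3, and 0.38, 0.38, 0.87 and 0.45 in SHIVA replicates 1 to 4. WT replicate 3 therefore stood above 3 of the 4 SHIVA livers on this mean. The median deviation of all genes is held near 0 by the quantile normalization and cannot serve as a comparison. For the 130 tested genes of the 8 matrix lists described below, the median deviation was -0.18, 0.04 and 0.18 in WT replicates 1 to 3. In SHIVA replicates 1 to 4 it was 0.03, 0.14, 0.26 and 0.11. WT replicate 3 was the highest WT liver for 7 of the 7 genes, WT replicate 1 the lowest of all mice for 5, and SHIVA replicate 3 the highest of all mice for 6. Over the 7 arrays, which share the genotype difference, Pearson's r between pairs of these 7 genes was positive for 21 of 21 pairs, from 0.39 to 0.90 with a median of 0.73. The highest value was that of Col1a1 with Col1a2. The 7 pairs with Des had r from -0.53 to -0.01, but within genotypes, after each genotype's mean was taken off, all 28 pairs were positive with a median of 0.58. These are descriptions over 7 arrays.

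Genes outside the group were set beside Acta2 and Col1a1 by the same measure. Among 19960 tested genes, the 3 with the highest r to Acta2 were Dll4 (0.99), a Notch ligand of endothelial cells, Cdh1 (0.98), which encodes E-cadherin, and Usp48 (0.98), a ubiquitin protease, and 38 genes had r above 0.95. For Col1a1 they were Capn6 (0.98), a calpain, a probe for an intergenic transcript (0.98) and Dnajb11 (0.97), a chaperone of the endoplasmic reticulum, and 13 genes had r above 0.95. Capn6 was well above background on only 1 WT and 2 SHIVA arrays, with log2 signals from 2.09 to 4.43. The points share their arrays and the genotype difference, and these values are descriptions.

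A wider view came from 8 hand-written lists of matrix and fibrosis genes without the members, which name 161 genes, of which 160 were on the array and 130 were tested. Of these 130 genes, 82 or 63.1% had a higher mean in SHIVA livers, against 48.8% of all genes tested, and the median log2 fold change was 0.12. Limma called 5 of them, or 3.85% beside 0.375% of all genes tested. At an unadjusted p under 0.05 in limma, 21 were higher and 5 lower, together 20% beside 13.3% of all genes tested. WT and SHIVA values did not overlap for 19 higher and 7 lower genes, 20% beside 12.2% of all genes. The lists were written with earlier results of these arrays known, so these shares are descriptions and give no independent support. The 5 called genes point in both directions. Leaving out single livers gave between 0 and 6 called genes, with 0 without WT replicate 1, WT replicate 2, SHIVA replicate 1 or SHIVA replicate 3, 1 without SHIVA replicate 4, 2 without SHIVA replicate 2 and 6 without WT replicate 3. Without the filter on dim probes, and by the methods' t-test, 0 of them were called.

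**Figure D4:**
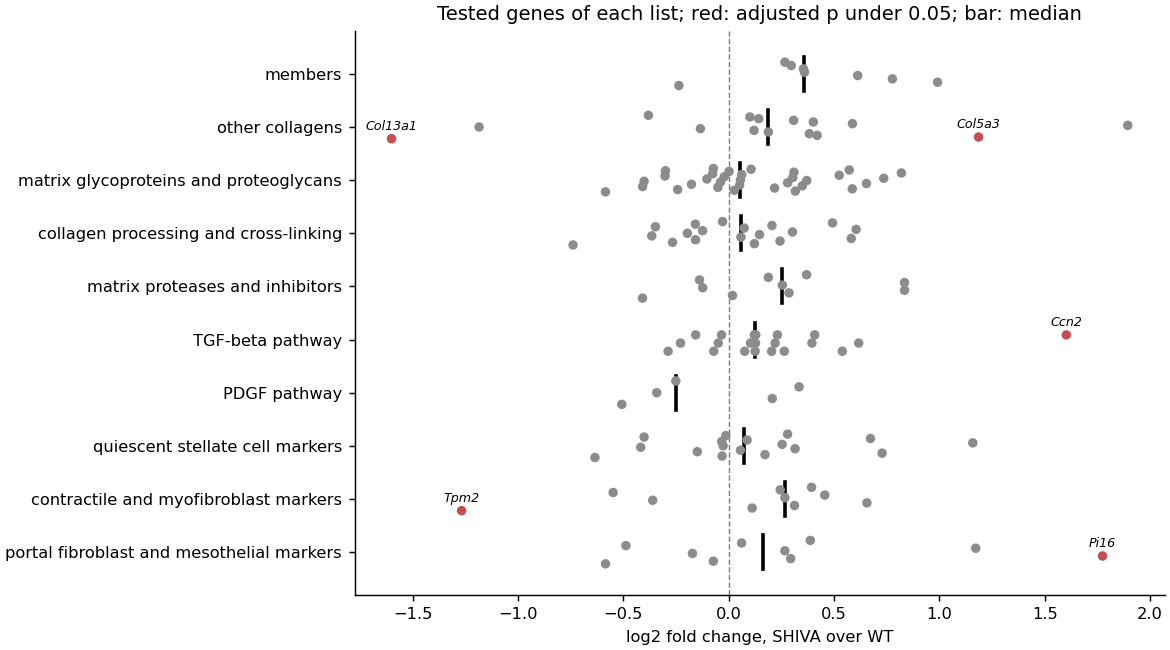
Fitted log2 fold change of SHIVA over WT (horizontal axis) of tested genes, by list (vertical axis). The lists are the group ("members"), the 8 wider lists and the portal fibroblast and mesothelial markers. Black bars give the medians over all tested genes of a list. Points give single genes, except a few that are not reported here, and red points mark an adjusted p under 0.05 in limma. Most genes lie within 0.5 of 0. The red points are Col5a3, Ccn2 and Pi16 to the right of 0 and Col13a1 and Tpm2 to the left. Pi16 is on the list of portal fibroblast and mesothelial markers, outside the 8 wider lists.

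Ccn2, which encodes connective tissue growth factor, a target of TGF-beta, rose in SHIVA livers. Its log2 signal was 8.47, 7.72 and 8.16 in WT livers and 9.48, 9.42, 10.02 and 9.94 in SHIVA livers. The genotypes lay nearly 1 log2 unit apart. This was a 3.04-fold difference (log2 fold change 1.60, SE 0.23), with adjusted p = 0.0380 in limma. The call was kept in 2 of 7 fits that each left out a mouse, those without WT replicate 3 or SHIVA replicate 2, and was lost without the filter on dim probes (adjusted p = 0.129 in limma) and with the replicate block (0.0884). In the same list of 26 TGF-beta pathway genes, 21 were tested, 15 of them had a higher mean in SHIVA livers, and Ccn2 was the only gene called. The signal transducers Smad3 and Smad2, which carry the TGF-beta signal to the nucleus, had log2 fold changes of 0.62 (SE 0.19, adjusted p = 0.233 in limma) and 0.41 (SE 0.18, adjusted p = 0.388 in limma), with WT and SHIVA values that did not overlap. With normexp that of Smad2 was 0.21, and without WT replicate 1 that of Smad3 was 0.41. The nearest livers of Smad2 were close, at 5.29 in WT replicate 3 and 5.31 in SHIVA replicate 4.

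Among 22 further collagen chains, 15 were tested, 1 rose and 1 fell. Col5a3, a chain of the fibrillar type V collagen, rose: its log2 signal was 8.16, 8.04 and 8.27 in WT livers and 9.60, 9.40, 9.18 and 9.18 in SHIVA livers, which gave a log2 fold change of 1.19 (SE 0.16, adjusted p = 0.0272 in limma). This call was kept without WT replicate 3 or SHIVA replicate 4, 2 of 7 such fits, and lost without the filter (adjusted p = 0.0867 in limma) and with the replicate block (0.0933). Col13a1, a collagen that spans the cell membrane, fell: its log2 signal was 5.29, 5.97 and 5.58 in WT livers and 4.18, 4.28, 3.84 and 3.75 in SHIVA livers, which gave a log2 fold change of -1.60 (SE 0.21, adjusted p = 0.0268 in limma). It was well above background on 3 of the 4 SHIVA arrays, and with normexp background correction its log2 fold change was -0.45 (adjusted p = 0.0986 in limma). Its call was kept without WT replicate 3 or SHIVA replicate 2, 2 of 7 fits, and lost without the filter (0.111) and with the replicate block (0.0688). Both genes lay far apart between the genotypes relative to the spread within them. Col27a1, another fibrillar collagen, had a log2 fold change of -1.18 (SE 0.27, adjusted p = 0.133 in limma) without overlap, and the value was -0.47 with normexp.

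Among 20 genes known for quiescent stellate cells, 18 were tested and 1 was called, with 10 of the 18 genes higher and 8 lower in their mean and a median log2 fold change of 0.07. Ngfr, the low-affinity neurotrophin receptor, and Rgs5, a regulator of G protein signalling in pericytes, had log2 fold changes of 0.73 (SE 0.18, adjusted p = 0.150 in limma) and 0.67 (SE 0.18, adjusted p = 0.194 in limma) without overlap. The summed signal of this list ranged from 49155 to 57154 in WT livers and from 50309 to 62006 in SHIVA livers.

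Of 15 contractile and myofibroblast markers, Acta2 and Des not counted, 11 were tested and only Tpm2, the beta chain of tropomyosin, was called. It fell: its log2 signal was 7.63, 7.80 and 8.36 in WT livers and 6.70, 6.65, 6.55 and 6.75 in SHIVA livers, which gave a log2 fold change of -1.27 (SE 0.19, adjusted p = 0.0423 in limma). The other probe of Tpm2 gave -1.44. The call was kept in 1 of 7 fits without single mice, that without WT replicate 3, and lost without the filter (adjusted p = 0.119 in limma) and with the replicate block (0.112). Of the 11 genes 8 had a higher mean in SHIVA livers, with a median of 0.27.

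**Figure D5:**
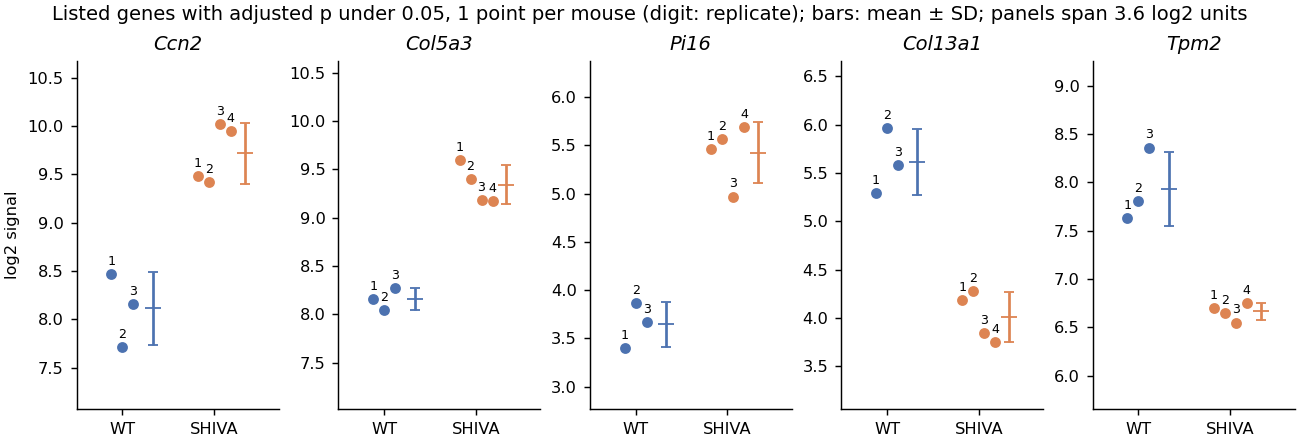
Log2 signal (vertical axis) of 5 listed genes with an adjusted p under 0.05 in limma, in WT and SHIVA livers (horizontal axis), with 1 point per mouse, the digit giving the replicate, bars for the mean ± SD, and panels that all span 3.6 log2 units. Ccn2, Col5a3 and Pi16 lie higher and Col13a1 and Tpm2 lower in all 4 SHIVA livers than in any WT liver.

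The remaining matrix lists held no called gene. Of 36 glycoproteins and proteoglycans 32 were tested, with 19 higher and 13 lower means and a median of 0.05, and the genes of smallest p without overlap were Lama1, a laminin chain (0.82, SE 0.25), Nid1, which links laminin to type IV collagen (0.65, SE 0.23), and Fbn1, the fibrillin of microfibrils (0.74, SE 0.29), all given as log2 fold changes. The nearest WT and SHIVA livers of Fbn1 were only 0.0013 apart, and 2 of its 3 WT arrays were well above background. Those of Lama1 were close too, at 6.75 in WT replicate 3 and 6.77 in SHIVA replicate 3. With normexp the log2 fold changes were 0.52 for Lama1, 0.40 for Nid1 and 0.16 for Fbn1. Without WT replicate 1 they were 0.55, 0.38 and 0.35. Of 20 genes for collagen processing and cross-linking 19 were tested, with 10 higher and 9 lower means, and in 0 of them were the genotypes apart. Of 19 matrix proteases and inhibitors 11 were tested. Their means were higher in SHIVA livers for 8 and lower for 3, with a median log2 fold change of 0.25. Ctsk, the collagen-cleaving cathepsin K, had a log2 fold change of 0.83 (SE 0.26, adjusted p = 0.233 in limma), which was 0.23 with normexp. In the small PDGF list of 6 genes 5 were tested, with 2 higher and 3 lower means and a median of -0.25, the only negative median of the 8 lists. Among them were the ligand Pdgfb (0.33, SE 0.13) and the receptor-like Pdgfrl (-0.51, SE 0.18) without overlap and without passing the adjusted test, at 0.17 and -0.23 with normexp.

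Markers of other cells that can bear these transcripts were read beside the group. Of 14 portal fibroblast and mesothelial markers 10 were tested and 1 was called, Pi16, a peptidase inhibitor of adventitial fibroblasts. Its log2 signal was 3.41, 3.87 and 3.67 in WT livers, where 2 arrays were well above background, and 5.46, 5.57, 4.97 and 5.69 in SHIVA livers, which gave a log2 fold change of 1.77 (SE 0.21, adjusted p = 0.0207 in limma). With normexp background correction this was 0.53 (adjusted p = 0.0763 in limma), and without single mice the call was kept in 4 of 7 fits and lost without WT replicate 1, WT replicate 2 or SHIVA replicate 1. The call of Pi16 was also lost without the filter on dim probes (adjusted p = 0.0869 in limma) and with the replicate block (0.0562). The summed signal of that list ranged from 680 to 847 in WT livers and from 774 to 814 in SHIVA livers. Of 12 endothelial markers 7 had a higher mean and 0 were called, with a summed signal from 18915 to 22429 in WT livers and from 16348 to 18994 in SHIVA livers. Of 12 Kupffer cell and macrophage markers 12 had a higher mean in SHIVA livers, 0 were called, and the median log2 fold change was 0.36, the same to 2 decimals as that of the group. Their summed signal overlapped between the genotypes, from 24139 to 50178 in WT livers and from 32981 to 69232 in SHIVA livers. Of 8 bile duct markers 5 were tested, 4 of them had a lower mean, and 0 were called. For skeletal muscle, 10 of 14 markers, among them Acta1, Ckm and Myh4, were not well above background on any array. The part of these cell types in the differences of the group was not tested.

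Promoter sequence was at hand for 7 of the 10 genes, from RefSeq on GRCm38.p6, as windows of 250 bases before the start of the gene and 50 after it. The 250 bases before the start are printed for the genes with the largest differences in the group, Acta2 at chr19:34255374-34255623 on the minus strand and Col3a1 at chr1:45311288-45311537 on the plus strand, with the TATA motif TATAAA in capitals where it occurs.
Acta2: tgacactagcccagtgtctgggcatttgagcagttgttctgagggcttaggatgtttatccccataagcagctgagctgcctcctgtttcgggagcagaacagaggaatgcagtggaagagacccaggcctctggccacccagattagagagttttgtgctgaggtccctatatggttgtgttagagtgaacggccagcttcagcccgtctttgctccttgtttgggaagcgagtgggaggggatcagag
Col3a1: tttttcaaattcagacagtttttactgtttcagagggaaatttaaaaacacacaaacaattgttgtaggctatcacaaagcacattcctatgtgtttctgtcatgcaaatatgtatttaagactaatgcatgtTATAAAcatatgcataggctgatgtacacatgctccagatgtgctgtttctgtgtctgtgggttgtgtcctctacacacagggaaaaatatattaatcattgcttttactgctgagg
On both strands of the windows, CATTGT, the SOX core ATTGT with a leading C, was searched. It was found in 0 of the 7 genes and in 12.6% of all 32851 windows. The shorter ATTGT was not counted, and the printed sequence of Col3a1 holds it. The AP-1 motif TGANTCA was found in 0 of the 7 (7.81% of all windows), the strict consensus of the CArG box in 0 of the 7 (1.63%), and TATAAA in 1, Col3a1 (13.6%). The SP1 motif GGGCGG was found in 5 of the 7, Col1a2, Col4a1, Des, Tgfb1 and Timp1, and in 35.7% of all windows. A missing match says only that the letters are not in these windows. Variants that differ by a base, which functional CArG elements of smooth muscle genes often do, were not searched. The printed sequence of Acta2 holds such variants, among them ccctatatgg and ccttgtttgg.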

How the data were processed

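Single-colour Agilent arrays of 3 WT and 4 SHIVA livers were analysed. Per the file headers and the submitters' processing notes, the authors deposited spot intensities from Feature Extraction 10.5.1.1, not normalized between arrays, and a table of log2 values that their methods describe as quantile normalized. That table served as an alternative. Spots marked as uneven or deviant, 120 to 163 per array, were left out, the processed intensities of the 7 arrays were brought to a common distribution by quantile normalization, log2 values were taken, and spots of a probe were averaged. Names of 26413 probes were brought up to date through their accessions with GRCm38.p6, and probe positions are those of mm9. A gene with several probes was read from that of highest mean signal. A probe counted as well above background on an array when at least 50% of its spots were, and genes so on at least 3 arrays were tested.

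The comparison used limma 3.58.1 in R 4.3.3 (lmFit and eBayes) with Benjamini-Hochberg adjustment over all genes tested. Fold changes are SHIVA over WT. The members and the lists were chosen with earlier results of these data known. Named were the members, every called gene of the lists, for each matrix list up to 3 tested genes of smallest p without overlap, and for Col1a1, Acta2 and Timp1 the 3 genes of highest correlation. The last are not given for Timp1, which was not above background. Some genes under this rule are not reported here and stay in the counts of their lists. Genes and values named outside this rule are Col4a2, Alb and Sox17. The steps were tested on simulated data. Alternatives were scaling to the 75th percentile, mean signal without background correction, normexp with an offset of 50, the deposited log2 table and other filters. Further ones were the mean of all probes, a block for the replicate number, array weights, each mouse left out, and an unpaired t-test. The methods name that t-test for the study in general and no test for the arrays. A batch term could not be fitted on 1 slide and 1 scan. Nothing says whether mice shared a litter or cage, and p-values measure the spread between these mice.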

Additional observations from a re-analysis of the deposited data

Results flagged for a closer look

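For the 8 tested members and the mean log2 signal of each of the 8 matrix lists, 16 items in all, the 4 SHIVA livers were searched for a liver that stood apart from the other 3, taking the gap to its nearest neighbour over the whole range of the livers. A ratio above Dixon's critical value for 4 samples is reached by chance in about 1 of 20 such items, which is 0.8 of 16 items, and 2 items reached it. None of the 8 members did. The mean of the PDGF pathway list was lower in SHIVA replicate 1, at 6.49 on the log2 scale, with a ratio of 0.9. The mean of the contractile and myofibroblast markers was higher in SHIVA replicate 3, at 7.94, with a ratio of 0.881, and this liver was also the highest of all mice for 6 of the 7 members other than Des.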

How the results depend on the processing

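Over 17 alternative settings for each of the 8 tested members, 136 values kept their direction and 136 stayed without a call. The other filters, the mean of all probes and a fit on single probes could not change these fold changes. Each tested member has 1 probe, so those settings bear on the calls alone. The log2 fold change of Acta2 lay between 0.50 and 0.96 (adjusted p from 0.0656 to 0.443 in limma). That of Col3a1 lay between 0.66 and 1.41 (adjusted p from 0.0508 to 0.636 in limma). For 19 listed genes outside the group, 0 of 299 values turned direction, 45 lost and 3 gained a call. There too the filters left the fold changes as they were. Of all genes tested, limma called 75 in the main setting, 142 on the mean signal without background correction and 142 in the authors' table. It called 13 without a filter and 480 with array weights. With single mice left out it called between 3 and 416, the lowest without WT replicate 1 and the highest without WT replicate 3. The unpaired t-test called 0 (2301 at an unadjusted p under 0.05). Of the wider matrix lists, 5 genes were called in the main setting, 8 with array weights and 0 without a filter. By the unpaired t-test 0 were called, and with single mice left out between 0 and 6. The cause of these shifts was not tested. With the replicate number as a block, in which SHIVA replicate 4 has no partner, 32 genes, 0 genes of the lists and 0 members were called. Same-numbered mice had correlations of their deviations of -0.05, 0.01 and 0.24, and the labels give no shared litter or day, so the numbers were not taken as a pairing. Signal limits Timp1 and Lox, which lay near background, and 3 against 4 mice limit small differences.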
